A study of Bos taurus with 6 samples.

Results

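The microRNAs (miRNAs) miR-203, miR-205 and miR-31, which are known from stratified squamous epithelium, were followed in intrauterine exosomes of cattle. They were looked up by name among the 895 miRNAs of the deposited count table, taking a -5p or -3p name where the bare name was missing. Of the 3 listed, 2 had a row, bta-miR-205 and bta-miR-31, and no row was named bta-miR-203. A predicted miRNA, novel26_mature, which carries the seed known for miR-203, is described beside them. It was chosen after the table had been seen and is not counted among the 2.

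Uterine flushing fluid (100 ml per cow) came from 3 donor and 3 recipient cows of the Xianan beef breed, flushed on day 7 after the donors were inseminated. Donor cows had received FSH and prostaglandin for superovulation, were artificially inseminated and gave well-developed blastocysts. They were taken from 10 donors. Recipient cows, taken from 23, were synchronized only and were chosen to be close to the donors in age and body weight. Exosomes were pelleted by ultracentrifugation and 1 small RNA library per cow was made from 10 ng of RNA. Superovulation, insemination and embryos went together with the donor group, so they cannot be told apart. The exosomes are a mixture from all cells that shed into the fluid, and fewer cells of a type cannot be told apart from less miRNA per cell.

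A miRNA guides a silencing complex to messenger RNAs that pair with its seed, bases 2 to 8 from its 5′ end. In stratified epithelia such as epidermis, cornea, vagina and outer cervix, miR-205 is abundant in basal cells. miR-203 rises as cells leave the basal layer and represses the basal cell factor p63. miR-31 is induced in growing keratinocytes, the main cells of such epithelia. The endometrium, by contrast, is lined by simple columnar epithelium, and miRNAs of the miR-200 family are found in epithelia of either kind. A flushing catheter passes through vagina and cervix before it reaches the uterus, which makes miRNAs of stratified epithelium a candidate measure of lower-tract material in a flush.

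The mature sequences of the table, with the seed in capitals, are shown for the 2 miRNAs and the predicted one because their identity rests on these letters, and for the miR-200 family because it is the epithelial reference used here.
bta-miR-205: tCCTTCATtccaccggagtctg
bta-miR-31: aGGCAAGAtgctggcatagct
novel26_mature: gTGAAATGtttaggaccactaga
bta-miR-200a: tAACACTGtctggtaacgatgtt
bta-miR-141: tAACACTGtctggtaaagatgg
bta-miR-200b: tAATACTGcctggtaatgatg
bta-miR-200c: tAATACTGccgggtaatgatgga
bta-miR-429: tAATACTGtctggtaatgccgt
The seeds of bta-miR-205, bta-miR-31 and novel26_mature differed from each other, and 0 other rows of the table shared any of them. The longest run of letters shared with any other row was 8 nt for bta-miR-205 and 7 nt for bta-miR-31 and for novel26_mature. In the miR-200 family, by contrast, bta-miR-200a and bta-miR-141 had one seed, bta-miR-200b, bta-miR-200c and bta-miR-429 another, and bta-miR-200a shared 16 nt with bta-miR-141, so that reads of this last pair could have been split between them. GC content was 54.5% in bta-miR-205, 52.4% in bta-miR-31 and 39.1% in novel26_mature. The authors used the assembly ARS-UCD 1.2. RefSeq's annotation of ARS-UCD2.0, which is newer, places the MIR205 gene between the coding genes CAMK1G and PLXNA2, where it overlaps no other gene. There MIR31 overlaps IFNE, the gene of interferon epsilon, which is known from the female reproductive tract, and its nearest coding neighbour on one side is MTAP.

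The libraries held from 229590 to 1365169 reads, and the limit set by a count of 0, which is 3 reads, stands for 2.20 to 13.1 CPM (reads scaled to a library of fixed size) at these depths. The methods describe no molecular identifiers, so such limits and all intervals on reads cover counting error only. All 15 pairs of libraries differed by more than sampling noise. Recipient cow 2 resembled the others least, with a median Spearman's rho of 0.51 across the 895 miRNAs against 0.62 to 0.69 for the other cows. Levels below are TMM-normalized CPM, which adjust for library total and composition, unless unscaled CPM is named. Donor and recipient cows were compared with the quasi-likelihood test of edgeR on all 895 miRNAs. A miRNA was called at a p under 0.05 before adjustment and a log2 fold change beyond 1 in either direction. This rule called 8.27% of all miRNAs, 2.79% as higher and 5.47% as lower in donors, and 0.223% had an adjusted p under 0.05. The p-values of edgeR rest on the spread between the 3 animals of each group, estimated with information shared across all 895 miRNAs. They therefore do not measure the spread of a single miRNA alone.

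bta-miR-205 was a low-level miRNA that differed strongly between cows of the same group. Donor cows 1, 2 and 3 gave 435, 164 and 15 reads, while recipient cows 1, 2 and 3 gave 13, 65 and 30. The levels were 297, 278 and 74.0 CPM in donors and 17.1, 256 and 49.1 CPM in recipients. Donor cows 1 and 2 and recipient cow 2 were thus high, and donor cow 3 and recipient cows 1 and 3 were low, so that the groups overlapped. The highest level was 17.3 times the lowest.

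Most of these gaps in bta-miR-205 were larger than counting error. In unscaled CPM, the 95% Wilson intervals were 290 to 350 in donor cow 1 and 278 to 377 in donor cow 2, which overlap. That of recipient cow 2 was 161 to 262, below both. The intervals of donor cow 3 (39.6 to 108) and recipient cow 3 (38.5 to 78.4) overlap, and recipient cow 1 (10.1 to 29.5) lay below every other cow. By number of reads, bta-miR-205 ranked between 98th in donor cow 2 and 273rd in recipient cow 1.

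The group means of bta-miR-205 were 216 ± 124 CPM in donors and 107 ± 130 CPM in recipients (SD, n = 3 each). The log2 fold change was 1.03 with a standard error of 1.08 and an adjusted p = 0.71 (edgeR). Its 95% interval, taken from the standard error, ran from -1.09 to 3.14, which holds 0 as well as a change of several-fold. The two-sided exact permutation test on the 3 and 3 levels gave p = 0.2, where 0.1 is the smallest that 3 cows against 3 allow. The value moved with the cows included. The log2 fold change of bta-miR-205 was 0.51 without recipient cow 1, and 0.73 and 0.81 without donor cows 1 and 2. Without recipient cow 2 it was 2.75, which met the rule for a call before adjustment but gave an adjusted p = 0.71 (edgeR). Recipient cow 2 was also the library with the highest level of bta-miR-122, a miRNA of liver, at 14731 CPM against 343 to 1756 CPM in the other cows, and the part of this in the result was not tested.

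**Figure D1:**
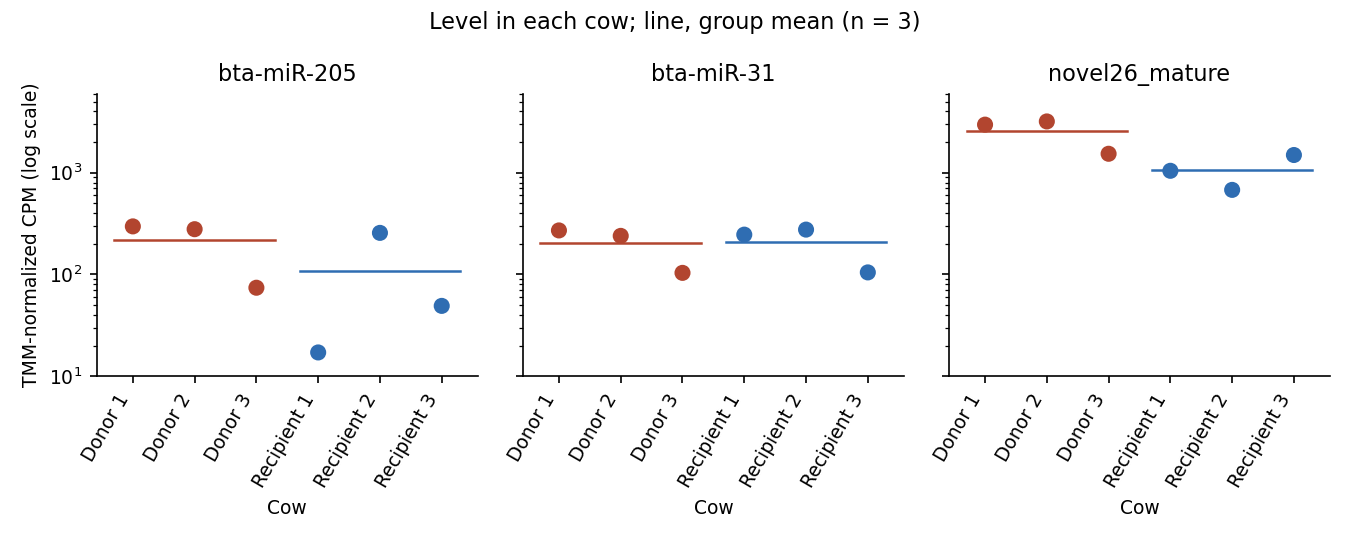
TMM-normalized CPM (log axis) of bta-miR-205, bta-miR-31 and the predicted novel26_mature in each of 3 donor (red) and 3 recipient (blue) cows; lines are group means. Donors and recipients overlap for bta-miR-205 (17.1 to 297 CPM) and bta-miR-31 (104 to 276 CPM), and the lowest donor of novel26_mature (1534 CPM) lies just above the highest recipient (1491 CPM).

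bta-miR-31 had nearly equal mean levels in the groups. Donor cows 1, 2 and 3 gave 397, 141 and 21 reads, while recipient cows 1, 2 and 3 gave 187, 70 and 64. These were 271, 239 and 104 CPM in donors and 246, 276 and 105 CPM in recipients. In each group 2 cows were high and cow 3 was low, and the highest level was 2.66 times the lowest, a much narrower range than that of bta-miR-205. In unscaled CPM, the Wilson intervals of the 4 high cows all overlapped each other, from 264 to 321 in donor cow 1 to 175 to 280 in recipient cow 2. Those of donor cow 3 (59.8 to 140) and recipient cow 3 (91.7 to 150) also overlapped and lay below the rest. The order of the cows within these sets was therefore not resolved at this depth.

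The means of bta-miR-31 were 204 ± 88.8 CPM in donors and 209 ± 91.4 CPM in recipients (SD, n = 3 each). The log2 fold change was -0.02 with a standard error of 1.00 and an adjusted p = 0.99 (edgeR), and its 95% interval ran from -1.99 to 1.94. The sign of so small a value turned to 0.040 with TMMwsp factors and 0.17 with total counts, and the exact permutation test on the levels gave p = 0.7. The interval does not show that the groups were alike, since it reaches from 3.96-fold lower to 3.83-fold higher in donors. Of the 2 miRNAs, 0 were called by edgeR's quasi-likelihood test, against 8.27% of all 895 miRNAs, and 0 had an unadjusted p under 0.05. DESeq2 with its defaults and edgeR's exact test also called 0. With 2 miRNAs and so small a share over all, such a count says little.

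The predicted novel26_mature was far more abundant than either named miRNA. Its bases 2 to 8, TGAAATG, are those known for miR-203 in mammals. This match was made from general knowledge and not against a reference, and the RefSeq annotation of ARS-UCD2.0 had no entry under the name MIR203. It was 23 nt long, against a median of 19 nt for the 449 predicted miRNAs and 22 nt for the known ones. With 8418 reads over all cows it ranked 1st among the predicted miRNAs, whose median was 17 reads, and the next had 5059. Of the reads on predicted miRNAs it took 34.8%, 25.3% and 8.73% in donor cows 1, 2 and 3, and 13.7%, 2.48% and 11.5% in recipient cows 1, 2 and 3.

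Donor cows 1, 2 and 3 gave 4351, 1879 and 311 reads of novel26_mature, while recipient cows 1, 2 and 3 gave 793, 172 and 912. The levels were 2966, 3188 and 1534 CPM in donors and 1043, 677 and 1491 CPM in recipients. Every donor lay above every recipient, by a narrow margin between donor cow 3 and recipient cow 3. In unscaled CPM the order of this pair was the opposite, with 1355 in donor cow 3 and 1669 in recipient cow 3, so the separation depended on the normalization. Among the 235 miRNAs with reads in all 6 libraries, 5.53% had every donor above every recipient, and 10.6% had groups that did not overlap in either direction.

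The means of novel26_mature were 2563 ± 898 CPM in donors and 1071 ± 408 CPM in recipients (SD, n = 3 each). The log2 fold change was 1.26 with a standard error of 0.67 and an adjusted p = 0.52 (edgeR). It was not called, and the exact permutation test gave p = 0.1, the smallest possible. It met the rule for a call before adjustment with DESeq2's size factors (log2 fold change 1.38), with TMMwsp factors (1.29), with either filter on low counts (1.30 and 1.33) and without donor cow 3 (1.55). In every alternative run its adjusted p was 0.43 or higher (edgeR and DESeq2).

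The 3 miRNAs did not keep a fixed proportion to each other. A ratio of reads within a library needs no normalization. bta-miR-31 had 0.913, 0.860 and 1.39 reads per read of bta-miR-205 in donor cows 1, 2 and 3, and 13.9, 1.08 and 2.11 in recipient cows 1, 2 and 3. The ratio was close to 1 in the donors and recipient cow 2 and highest in recipient cow 1, where bta-miR-205 had 13 reads. Its log2 was 0.04 ± 0.38 in donors and 1.66 ± 1.91 in recipients (SD, n = 3 each), a difference of -1.62 that did not pass the exact permutation test (p = 0.2, or 0.45 after Benjamini-Hochberg adjustment over the 9 permutation tests made).

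novel26_mature had between 2.63 (recipient cow 2) and 58.8 (recipient cow 1) reads per read of bta-miR-205. The donors lay within this range, at 9.99, 11.4 and 20.1. The log2 of this ratio averaged 3.72 ± 0.54 in donors and 4.06 ± 2.36 in recipients (SD, n = 3 each, exact permutation p = 0.9). Recipient cow 2 thus combined the lowest level of novel26_mature with the highest level of bta-miR-205 among recipients. The log2 ratio of bta-miR-31 to novel26_mature was -3.68 ± 0.21 in donors and -2.40 ± 1.30 in recipients (SD, n = 3 each, exact permutation p = 0.3). In all 3 ratios the SD was smaller among the donors than among the recipients, and this difference in spread was not tested.

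The miR-200 family, which keeps epithelial cells in the epithelial state, gave a reference for epithelial material of any kind. Its 5 members summed to 35081, 57807 and 27865 CPM in donor cows 1, 2 and 3, and to 18332, 18717 and 16721 CPM in recipient cows 1, 2 and 3. Per 1000 reads of this family, the reads of bta-miR-205 numbered 8.45, 4.81 and 2.65 among donors, against 0.933, 13.7 and 2.93 among recipients. The extremes were both recipients. bta-miR-31 had 7.71, 4.14 and 3.72 reads per 1000 in donors and 13.4, 14.7 and 6.26 in recipients. The groups overlapped in a single pair of cows, as donor cow 1 lay above recipient cow 3. The log2 ratio of bta-miR-31 to the family was -7.66 ± 0.56 in donors and -6.53 ± 0.68 in recipients (SD, n = 3 each), a difference of -1.12 (exact permutation p = 0.2, adjusted over the 9 tests 0.45). The log2 fold change of bta-miR-31 itself was -0.02, while the family sum was higher in every donor than in every recipient.

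novel26_mature stayed closer to the family than either named miRNA. It had 84.5, 55.2 and 55.0 reads per 1000 family reads in donor cows 1, 2 and 3, and 56.9, 36.2 and 89.2 in recipient cows 1, 2 and 3. The highest of these ratios was 2.46 times the lowest, against 14.2 times for bta-miR-205 and 3.90 times for bta-miR-31. The groups overlapped fully, with a log2 ratio of -3.98 ± 0.36 in donors and -4.13 ± 0.65 in recipients (SD, n = 3 each, exact permutation p = 1). The difference between groups that was seen in the level of novel26_mature was thus 0.16 on the log2 scale when read against the miR-200 family. For bta-miR-205 the log2 ratio to the family was -7.70 ± 0.81 in donors and -8.19 ± 1.92 in recipients (SD, n = 3 each, exact permutation p = 0.9).

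**Figure D2:**
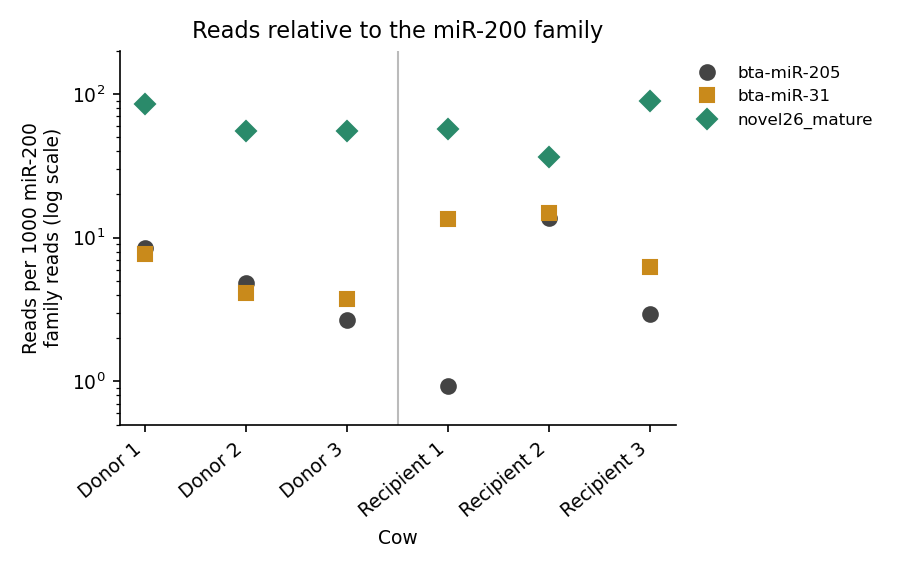
Reads of bta-miR-205, bta-miR-31 and novel26_mature per 1000 reads of the 5 miR-200 family miRNAs (log axis) in each cow, donors left and recipients right of the grey line. novel26_mature stays between 36.2 and 89.2 in all 6 cows, while bta-miR-205 runs from 0.933 in recipient cow 1 to 13.7 in recipient cow 2.

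The known miRNAs most like each of the 3 were sought among those with reads in all 6 libraries, by the SD over the 6 cows of the log2 ratio of reads. A small SD means that both kept the same proportion in all cows. For bta-miR-205 the closest of 188 were bta-miR-2284x (SD 0.82), bta-miR-429 of the miR-200 family (SD 0.96) and bta-miR-11980 (SD 0.99), against a median SD of 2.07. Another member of that family, bta-miR-141, was among the least alike (SD 2.73). For bta-miR-31 the closest were bta-miR-181d (SD 0.28), bta-miR-183 (SD 0.34), a miRNA known from sensory epithelia, and bta-miR-210 (SD 0.42), which is known to be induced by low oxygen, against a median of 1.16. For novel26_mature the closest of 189 were bta-miR-192 (SD 0.39), known from gut and kidney epithelium, bta-miR-151-5p (SD 0.42) and bta-miR-200b (SD 0.44), with a median of 1.23.

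The 3 were less alike among themselves than each was to these, but these had been picked for the smallest SD. That comparison was thus nearly fixed in advance. Between bta-miR-205 and bta-miR-31 the SD of the log2 ratio was 1.52. This placed bta-miR-31 24th of 188 in likeness to bta-miR-205, where the median SD was 2.07. It placed bta-miR-205 143rd of 188 in likeness to bta-miR-31, where the median SD was 1.16. Between novel26_mature and bta-miR-31 the SD was 1.09, and between novel26_mature and bta-miR-205 it was 1.54. bta-miR-205 and novel26_mature were each closer to 4 of the 5 miR-200 family members than to bta-miR-31. The exception was bta-miR-141, with an SD of 2.73 to bta-miR-205 (176th of 188) and 1.36 to novel26_mature (115th of 189). These SDs describe 6 libraries that differ in depth, and low counts such as the 13 reads of bta-miR-205 in recipient cow 1 add to them.

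Of 4 other miRNAs studied in keratinocytes or cornea, 1 was called as higher in donors, against 2.79% of all miRNAs, and 3 were not called. The called miRNA, bta-miR-184, was already the paper's only significant miRNA after correction for multiple testing. As the list was chosen with earlier results of these data known, its share of calls is no separate evidence. bta-miR-184, which is abundant in corneal epithelium, had 19694, 11941 and 25922 CPM in donor cows 1, 2 and 3, and 304, 945 and 728 CPM in recipient cows 1, 2 and 3. Every donor lay far above every recipient, and it rose in donors by 4.86 on the log2 scale, with a standard error of 0.59 and an adjusted p = 1.87e-13 (edgeR). Over the 6 cows the SD of the log2 ratio to bta-miR-184 was 2.22 for bta-miR-205, near that miRNA's median SD of 2.07. It was 2.93 for bta-miR-31 and 2.25 for novel26_mature, against medians of 1.16 and 1.23. The gap between groups in bta-miR-184 enters each of these SDs. They therefore cannot show whether the miRNAs went together within a group. The other 3 of these 4, bta-miR-24-3p (log2 fold change -0.83), bta-miR-125b (-0.25) and bta-miR-34a (-0.87), were not called. The median log2 fold change of the 4 was -0.54, against -0.01 for all 895 miRNAs tested and -0.27 for the 235 with reads in all 6 libraries, as all 4 had.

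**Figure D3:**
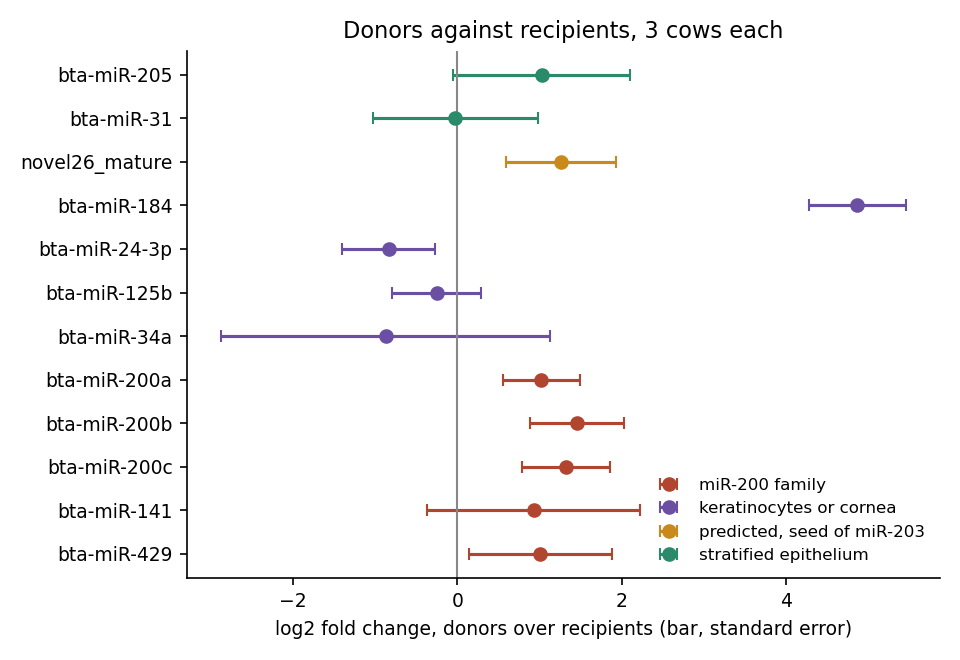
Log2 fold change of donors over recipients with its standard error (bars), by edgeR with 3 cows per group, for the stratified epithelial miRNAs, the predicted novel26_mature, the miRNAs studied in keratinocytes or cornea and the miR-200 family. bta-miR-31 lies at -0.02, bta-miR-205 and novel26_mature lie at 1.03 and 1.26 beside the miR-200 family (0.93 to 1.45), and bta-miR-184 stands apart at 4.86.

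In the miR-200 family, 3 of 5 members were called as higher in donors, against 2.79% of all miRNAs, and all 5 had an adjusted p of 0.46 or higher (edgeR). They were bta-miR-200a (log2 fold change 1.02), bta-miR-200b (1.45) and bta-miR-200c (1.33). The paper had already listed bta-miR-200b as higher in donors, and this list too was chosen with earlier results known. bta-miR-141 (0.93) and bta-miR-429 (1.01) were not called, and DESeq2 with its defaults called bta-miR-200b alone of the 5. The family's median was 1.02. All 5 kept a positive sign with DESeq2's size factors, TMMwsp factors and total counts. With bta-miR-205 at 1.03 and bta-miR-31 at -0.02, the 2 stratified epithelial miRNAs had a median of 0.50.

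Lists for other cell types place these levels in the whole sample. bta-miR-205 and bta-miR-31 together came to 178 to 567 CPM in donors and 154 to 532 CPM in recipients, with overlapping groups. This sum leaves out novel26_mature, which alone had 1534 to 3188 CPM in donors and 677 to 1491 CPM in recipients. If that row is miR-203, the sum misses the most abundant of the 3 listed miRNAs. Ciliated epithelium (5 miRNAs, led by bta-miR-34c) had 119 to 840 CPM in donors and 280 to 596 CPM in recipients, and leukocytes (5 of 6 listed, with no row for bta-miR-142-3p) 567 to 901 CPM and 288 to 744 CPM. Both lists had 0 called members in edgeR's quasi-likelihood test, against 8.27% of all miRNAs, and 0 with an unadjusted p under 0.05. In the leukocyte list the defining bta-miR-223 had only 1 to 33 reads per cow, and in the ciliated list bta-miR-34b had 0 reads in 4 cows.

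Stroma and smooth muscle (5 miRNAs) had far more, 7632 to 11653 CPM in donors and 11741 to 24877 CPM in recipients. Of these 5, 1 was called as lower in donors, against 5.47% of all miRNAs. It was bta-miR-199a-3p, a miRNA of mesenchymal cells (log2 fold change -1.45, adjusted p = 0.46 in edgeR). DESeq2 with its defaults did not call it. The list's median was -1.29, against -0.01 for all 895 miRNAs and -0.27 for the 235 with reads in all 6 libraries, as all 5 had. Erythrocyte miRNAs (3) came to 2269 to 7914 CPM in donors and 1888 to 11958 CPM in recipients. The miRNAs of other organs (3 of 4, with no row for bta-miR-124a) reached 3309 to 33709 CPM in donors and 4618 to 89651 CPM in recipients, mostly bta-miR-1 of striated muscle, highest in donor cow 1 and recipient cow 3. In every cow bta-miR-205 and bta-miR-31 each lay below bta-miR-1 and bta-miR-122. This did not hold for bta-miR-133a of the same list. It lay below both in donor cow 2 (37.3 CPM) and recipient cow 2 (142 CPM). In donor cow 1 (651 CPM) and recipient cow 3 (1359 CPM) it lay above both. In donor cow 3 (98.6 CPM) and recipient cow 1 (46.1 CPM) it lay between them. The part of muscle, blood or liver miRNAs in the levels of the stratified epithelial miRNAs was not tested.

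**Figure D4:**
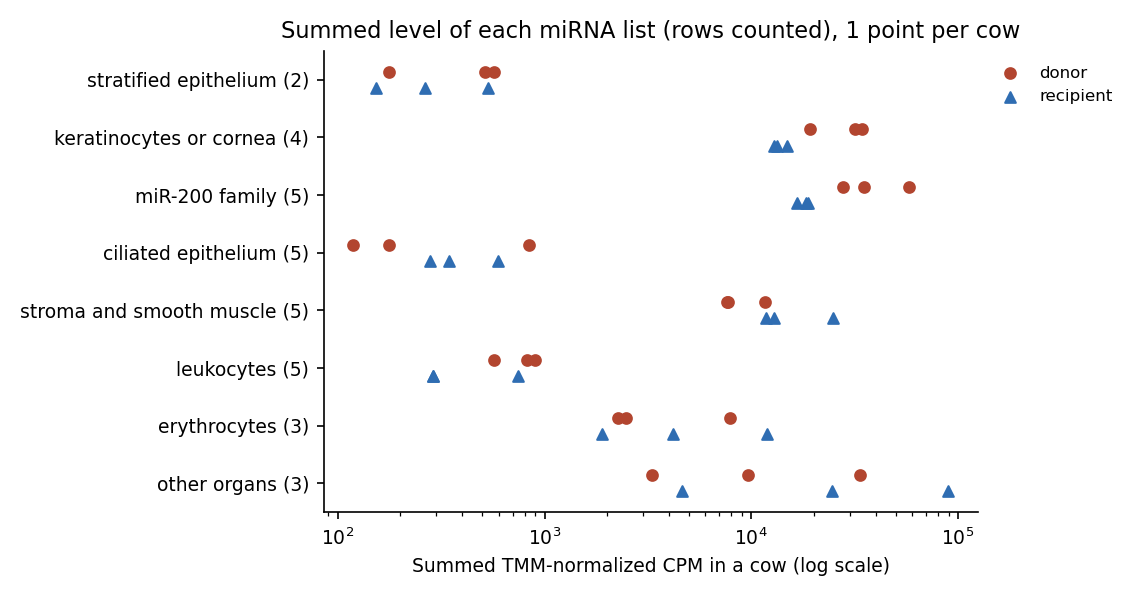
Summed TMM-normalized CPM (log axis) of each miRNA list in each cow, with the number of miRNAs counted in brackets; circles are donors and triangles recipients. The stratified epithelial pair, which leaves out novel26_mature, sits at 154 to 567 CPM. This is near the ciliated and leukocyte lists and below the miR-200 family at 16721 to 57807 CPM.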

How the data were processed

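The authors filtered small RNA reads by quality and length, set aside other RNA classes found in Rfam, took known miRNAs from miRBase and had miRdeep2 predict more, with ARS-UCD 1.2 as reference genome. The submitters' processing notes also name HISAT2 and HTSeq. The deposited values are raw read counts, 1 column for each cow, beside the sequence and length of each miRNA. How reads matching several miRNAs were counted is not given in the sources used here. Each of the 895 rows carried a name, and a row joining several names was called by its last.

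From these counts edgeR 4.0.16 in R 4.3.3 (TMM, glmQLFit with robust estimation, prior count 0.125, glmQLFTest, no covariates, no filter beyond 1 read) tested all rows in the 6 libraries, with Benjamini-Hochberg adjustment over all 895. Its biological coefficient of variation was 125%. A standard error is the absolute log2 fold change divided by the square root of F. DESeq2 1.42.0 was an alternative. Permutation tests were two-sided and exact, of the difference in means (scipy 1.17.1, Python 3.11.15). Ratios used 0.5 reads as pseudocount. The rule for a call follows the methods of the study. The scripts were tested on simulated data.

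The miRNAs named were the listed members, the members of the cell type lists, the 3 known miRNAs most like each member and rows sharing a seed or 16 nt with a member. Members and lists were chosen with earlier results of these data known, and novel26_mature after the table was seen. The target predictions, GO and KEGG analyses were not used here. Alternatives were other scalings, filters, tests and priors, a replicate block, other pseudocounts and leaving out each cow.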

Additional observations from a re-analysis of the deposited data

How the results depend on the processing

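Over 122 alternative values for 12 results, 102 kept their direction and 14 turned it. Another 6 kept it and passed the thresholds for a call where the reported value did not. For the 9 results with permutation tests only the direction was compared, as their p cannot fall below 0.1. The thresholds applied to the fold changes of edgeR and DESeq2 alone. The log2 fold change of bta-miR-205 stayed positive, and leaving out 1 cow moved it between 0.51 (without recipient cow 1) and 2.75 (without recipient cow 2). That of bta-miR-31 turned to 0.040 with TMMwsp factors and 0.17 with total counts, and ranged from -0.30 to 0.36 without 1 cow, while its difference in mean level, -4.33 CPM, turned to 24.6 CPM with total counts and ranged from -56.4 to 46.1 CPM without 1 cow. novel26_mature, whose alternatives were chosen after the data were seen, passed the thresholds before adjustment with DESeq2's size factors (1.38), TMMwsp factors (1.29), at least 10 reads in 3 libraries (1.30) and filterByExpr (1.33), and ranged from 1.07 to 1.57 without 1 cow. Its adjusted p was 0.43 to 1 over all alternatives. Of the log2 ratios, without 1 cow the difference ranged from -1.67 to 0.57 for novel26_mature to bta-miR-205, from -0.16 to 0.48 for novel26_mature to the miR-200 family and from -0.41 to 1.50 for bta-miR-205 to the family. The cause of these changes was not tested. The median over all 895 miRNAs was 0.12 on the log2 scale with DESeq2's size factors, against -0.01 with TMM. No alternative for bta-miR-203 was run, as no row bore that name.

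Same-numbered donor and recipient cows deviated from their group means with correlations of 0.17, -0.0774 and -0.398 over 229 miRNAs. The paper describes the recipients as matched controls of similar age and body weight, but states no pairing by number. Such correlations cannot decide whether cows were matched by number. With the replicate block the log2 fold changes were 1.46 for bta-miR-205, -0.03 for bta-miR-31 and 1.27 for novel26_mature, and 0 of these were called, as without the block. Low counts limit bta-miR-205 most, with 13 reads in recipient cow 1 and 15 in donor cow 3. The library of donor cow 3 was the smallest, at 229590 reads, while that of recipient cow 1 held 753354.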
